A study of Homo sapiens with 4 samples.

Results

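The alpha-arrestins TXNIP, ARRDC1, ARRDC2, ARRDC3 and ARRDC4 and the glucose-sensing transcription factors MLXIP (MondoA) and MLXIPL (ChREBP) were examined in MOLM-14 cells given rapamycin. The genes were found by matching the Entrez gene number of each row of the deposited value table to these symbols, and all 7 were found, 1 probe set each, among 25582 probe sets. The family was chosen by earlier results of the same comparison, in which the log2 differences of TXNIP and ARRDC3 between rapamycin and control stood among the larger ones. The differences of all 7 members between rapamycin and control are therefore given as a description. Which of them passed the threshold of the fit over all genes is stated, but nothing is read from it.

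MOLM-14 cells are an established line from a human acute myeloid leukemia with an activating internal duplication in FLT3, and rapamycin is a macrolide that blocks the growth kinase complex mTORC1 through FKBP12. The 2 rapamycin arrays came from cells exposed to 10 nM for 24 hours, and the 2 control arrays from cells that were not treated with rapamycin. The growth and treatment protocols attached to all 4 arrays also describe doxycycline-induced short hairpin RNAs, scrambled or against PIM2, whereas the agent labels and the design name no hairpin, so it is not known from these sources whether any culture carried one. PIM2 stood at 8.26 and 8.32 log2 units on the rapamycin arrays and at 8.03 and 8.07 on the control arrays.

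Alpha-arrestins are adaptors that bind membrane proteins and, through short proline-rich motifs, recruit ubiquitin ligases of the NEDD4 family, which sends the cargo into endosomes. TXNIP promotes the uptake of glucose transporters from the surface and also binds thioredoxin. MLXIP pairs with MLX, senses glucose 6-phosphate and switches on a small set of genes, of which TXNIP and ARRDC4 are the best known, by binding paired E-boxes called carbohydrate response elements. MLXIPL is its relative, best known in liver and fat.

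To show the stretch on which such binding is known for TXNIP, the 250 bases before the annotated start of transcription are printed for the 3 members with the largest differences. They are the strand of the gene, 5′ to 3′, from RefSeq on GRCh38.p14, and capitals mark matches to the letters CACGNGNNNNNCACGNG (the E-boxes of the paired element, not the spacer) or to the single E-box CACGTG, searched on both strands.
TXNIP, chr1:145996580-145996829, minus strand: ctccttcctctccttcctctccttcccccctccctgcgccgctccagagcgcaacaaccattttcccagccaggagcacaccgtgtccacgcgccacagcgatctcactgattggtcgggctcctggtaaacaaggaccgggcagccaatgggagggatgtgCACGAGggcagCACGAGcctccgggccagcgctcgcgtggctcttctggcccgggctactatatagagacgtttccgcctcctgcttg
ARRDC4, chr15:97960453-97960702, plus strand: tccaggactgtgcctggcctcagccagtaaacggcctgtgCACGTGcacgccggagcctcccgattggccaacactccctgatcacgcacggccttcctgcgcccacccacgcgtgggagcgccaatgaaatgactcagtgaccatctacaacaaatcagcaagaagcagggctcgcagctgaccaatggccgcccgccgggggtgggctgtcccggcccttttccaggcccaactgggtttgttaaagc
ARRDC3, chr5:91383318-91383567, minus strand: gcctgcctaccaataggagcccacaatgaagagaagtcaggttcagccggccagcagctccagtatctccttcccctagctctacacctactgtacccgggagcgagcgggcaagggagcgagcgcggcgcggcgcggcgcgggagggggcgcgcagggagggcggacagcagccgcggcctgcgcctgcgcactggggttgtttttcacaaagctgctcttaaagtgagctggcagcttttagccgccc

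The TXNIP stretch held 1 paired element, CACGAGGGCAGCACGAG, whose first base lies 88 bases before the start. The ARRDC4 stretch held a single CACGTG, 210 bases before its start, and no paired element. Neither set of letters was found in the ARRDC3 stretch, nor in the windows of ARRDC1, ARRDC2, MLXIP and MLXIPL. TXNIP, ARRDC2 and ARRDC3 each have a further annotated start in the table, and those windows held no match either. Over all 35116 windows of the same length in the table, 0.0456% held the paired element (16 windows of 16 genes) and 6.34% held CACGTG. A match shows only that the letters are present, and a window without one says nothing about binding of the factor.

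TXNIP was higher on the rapamycin arrays, at 10.70 and 11.06 log2 units, against 9.80 and 10.07 on the control arrays. The groups did not overlap, and the lowest rapamycin value lay 0.64 log2 units above the highest control value. The log2 difference, rapamycin minus control, was 0.95 (SE 0.12), or 1.93-fold, which placed TXNIP 6th from the top among the 14635 genes past the signal filter. The arrays of a group differed from each other by an SD of 0.25 with rapamycin and 0.19 in controls (n = 2 each), and in each group the array numbered 2 was the higher.

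ARRDC4, which like TXNIP lowers glucose uptake by the cell, was also higher, at 6.58 and 6.68 log2 units with rapamycin against 5.91 and 5.88 in controls. The arrays of each group lay close together, with means of 6.63 ± 0.07 with rapamycin and 5.90 ± 0.02 in controls (SD, n = 2 each). The log2 difference was 0.73 (SE 0.12), or 1.66-fold, and ranked 21st from the top. Among the 7 genes, the profile of ARRDC4 over the 4 arrays was the nearest to that of TXNIP. The Euclidean distance between centred values was 0.35, against 0.84 for the next nearest, MLXIP. This distance largely restates the rise of both genes and is not separate evidence.

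ARRDC3 ran the other way. It stood at 7.79 and 7.54 log2 units with rapamycin against 8.80 and 9.12 in controls, so that the highest rapamycin value lay 1.01 log2 units under the lowest control value. The log2 difference was -1.29 (SE 0.13), or 2.45-fold lower, and ranked 8th from the bottom of all genes tested. ARRDC3 is an adaptor for the beta2-adrenergic receptor and is known as a regulator of energy expenditure in mice and of integrin turnover in breast cancer cells. The gap TXNIP minus ARRDC3 was taken within each array and set to 0 at the control mean. It was 1.94 and 2.54 log2 units on the rapamycin arrays and 0.02 and -0.02 on the control arrays. ARRDC4 minus ARRDC3 gave 1.85 and 2.20 against 0.17 and -0.17, and TXNIP minus ARRDC4 gave 0.09 and 0.34 against -0.15 and 0.15. The control values mirror each other by construction. The family was chosen on TXNIP and ARRDC3, so nothing is read from these gaps. These arrays measure RNA of the whole culture, so a change in the share of cells that express a gene and a change of RNA per cell cannot be told apart.

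**Figure D1:**
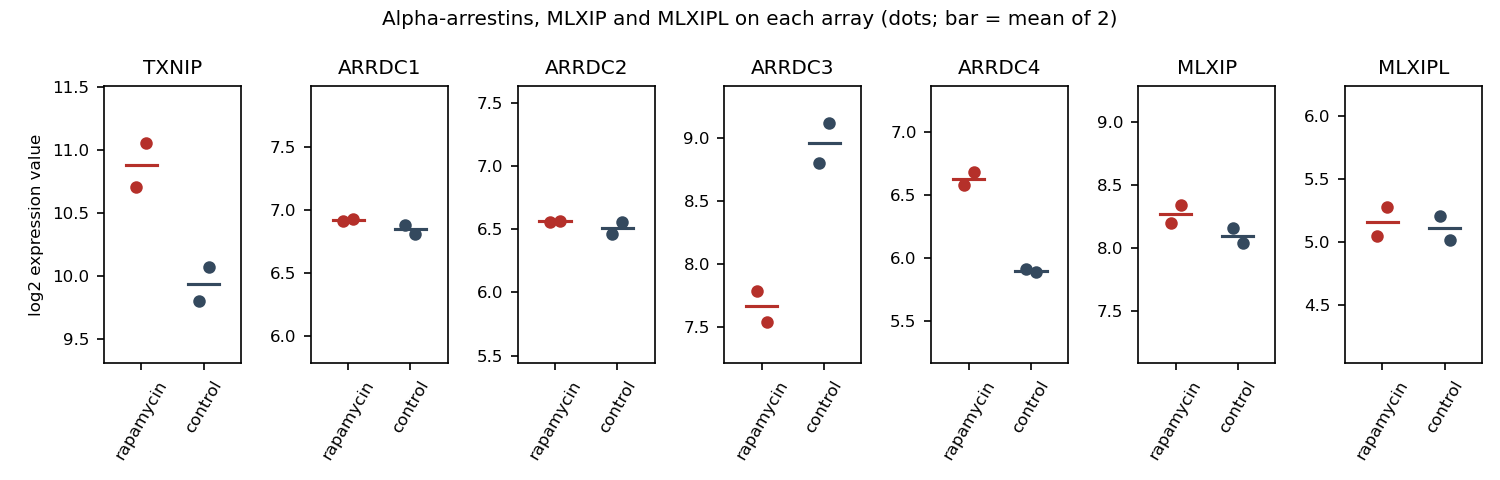
The log2 expression value of each gene on each array is plotted in a panel of its own, rapamycin on the left and control on the right, with dots for arrays, bars for the mean of 2, and the same span of log2 units on every vertical axis. TXNIP and ARRDC4 lie higher with rapamycin and ARRDC3 lower, and levels of different genes cannot be compared because each rests on its own probes.

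The remaining alpha-arrestins differed little. ARRDC1, which buds from the plasma membrane in small vesicles together with the ESCRT protein TSG101, had 6.91 and 6.93 log2 units with rapamycin against 6.88 and 6.81 in controls. Its log2 difference was 0.08, with a 95% interval of the moderated fit from -0.16 to 0.31. ARRDC2 had 6.56 and 6.57 with rapamycin against 6.46 and 6.56 in controls, and its groups overlapped. Its log2 difference was 0.05, with an interval from -0.20 to 0.31. Differences of the size seen in TXNIP, ARRDC3 or ARRDC4 lay outside both intervals, while differences inside the intervals could not be resolved with 2 arrays a group.

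The glucose-sensing factors themselves also differed little at the level of their RNA. MLXIP had 8.20 and 8.34 log2 units with rapamycin against 8.16 and 8.04 in controls, a log2 difference of 0.17 (95% interval -0.04 to 0.39). Its lowest rapamycin value exceeded its highest control value by 0.04. MLXIPL had 5.05 and 5.28 with rapamycin against 5.21 and 5.02 in controls, a log2 difference of 0.05 (95% interval -0.29 to 0.38). The MLXIPL groups overlapped, and its signal was near the filter minimum of 4.86, below which probe sets were left out. Activity of MLXIP is set by where the protein resides in the cell, and the arrays do not measure that.

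Of the 7 members, all passed the signal filter, and the mean of each group was above the minimum for each of them. In the limma fit over all 14635 genes the differences of 2 members lay past an adjusted p of 0.05 upward (TXNIP and ARRDC4) and that of 1 downward (ARRDC3), where 1.28% of all genes were called, 0.417% higher and 0.861% lower. The median log2 difference of the members was 0.08, against 0.01 for all genes tested. The arrays of the groups did not overlap for 5 of 7 members, against 46.8% of all genes. Both rapamycin arrays lay above both control arrays for 4 members (24.9% of all genes) and below for 1 (21.8%). Because the members were chosen on this comparison, these counts were in part fixed by the choice, and nothing is read from them. ARRDC4 was not past the threshold without control replicate 2, at a log2 difference of 0.71, nor with no filter, and neither TXNIP nor ARRDC4 was without the mean-variance trend.

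**Figure D2:**
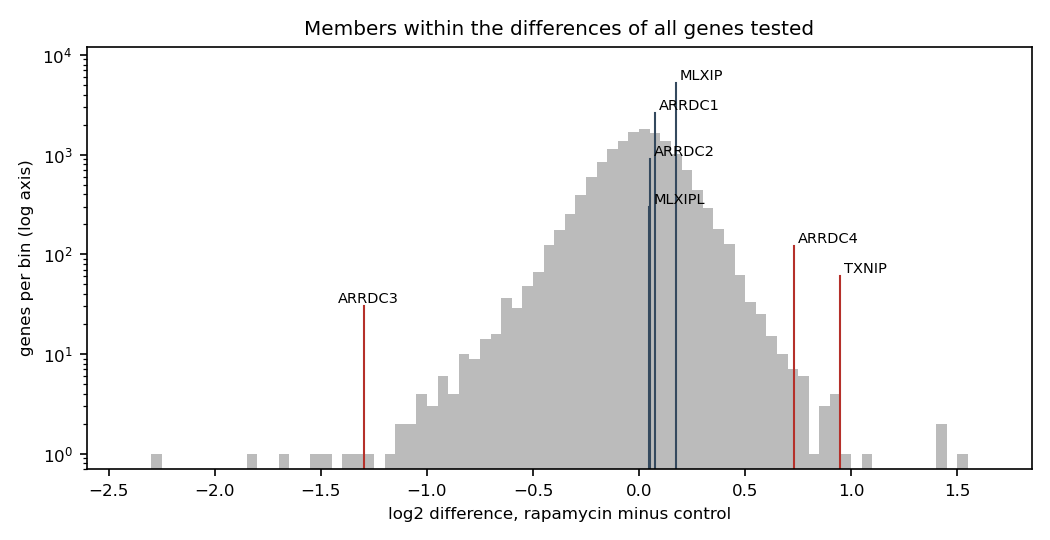
The histogram shows the log2 difference, rapamycin minus control, of the 14635 genes tested, with the number of genes per bin on a log axis. Vertical lines mark the 7 members at their own difference (line heights only separate the names): TXNIP at 0.95 and ARRDC4 at 0.73 lie in the upper tail, ARRDC3 at -1.29 in the lower tail, and the other 4 between 0.05 and 0.17.

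Since the groups did not overlap for TXNIP, ARRDC4 and ARRDC3, leaving out an array could change the size of their differences but not the sign. Over the reported and 11 alternative settings, the log2 difference ran from 0.77 to 1.12 for TXNIP, from 0.68 to 0.78 for ARRDC4 and from -1.45 to -1.14 for ARRDC3. That of MLXIPL ran from -0.07 to 0.16 and changed sign.

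**Figure D3:**
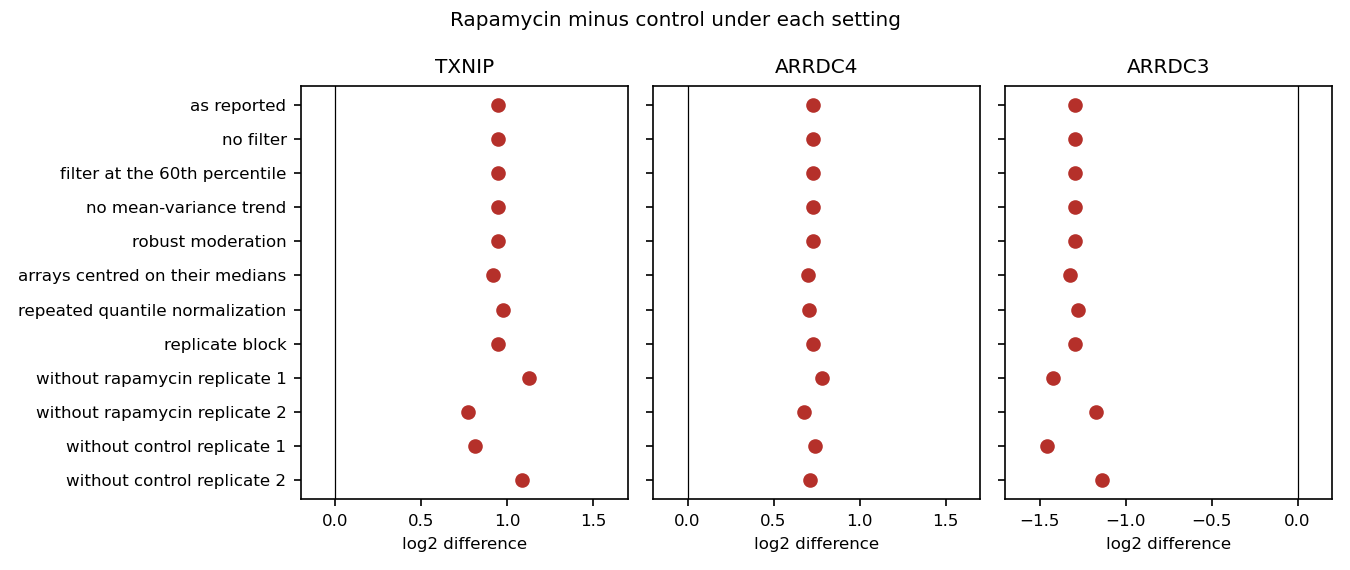
Each dot is the log2 difference, rapamycin minus control, of TXNIP, ARRDC4 or ARRDC3 under the setting named on the vertical axis, and the vertical line is at 0. The dots of each gene stay on their own side of 0, between 0.77 and 1.12 for TXNIP and between -1.45 and -1.14 for ARRDC3.

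The genes nearest in profile were sought among 12428 other protein-coding genes, as the smallest Euclidean distance over 4 arrays after the mean of each gene was subtracted. For TXNIP they were TNF, an inflammatory cytokine (distance 0.17), the fatty acid receptor GPR84 (0.22), and EGR1, an immediate early transcription factor (0.23). The median distance from TXNIP was 1.01. For ARRDC4 the nearest were the neurotensin receptor NTSR1 (0.11), the actin regulator RFLNB (0.11) and the immunity-related GTPase IRGM (0.12), at a median of 0.74. Those nearest to ARRDC3 were RGS2, a brake on G protein signalling (0.11), the polyamine acetyltransferase SAT1 (0.28) and the metallothionein MT1X (0.28), at a median of 1.34. RGS2 had 6.56 and 6.23 log2 units with rapamycin against 7.65 and 7.91 in controls. Array 2 was thus the more extreme in both groups, as in ARRDC3, on whose values RGS2 was picked.

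**Figure D4:**
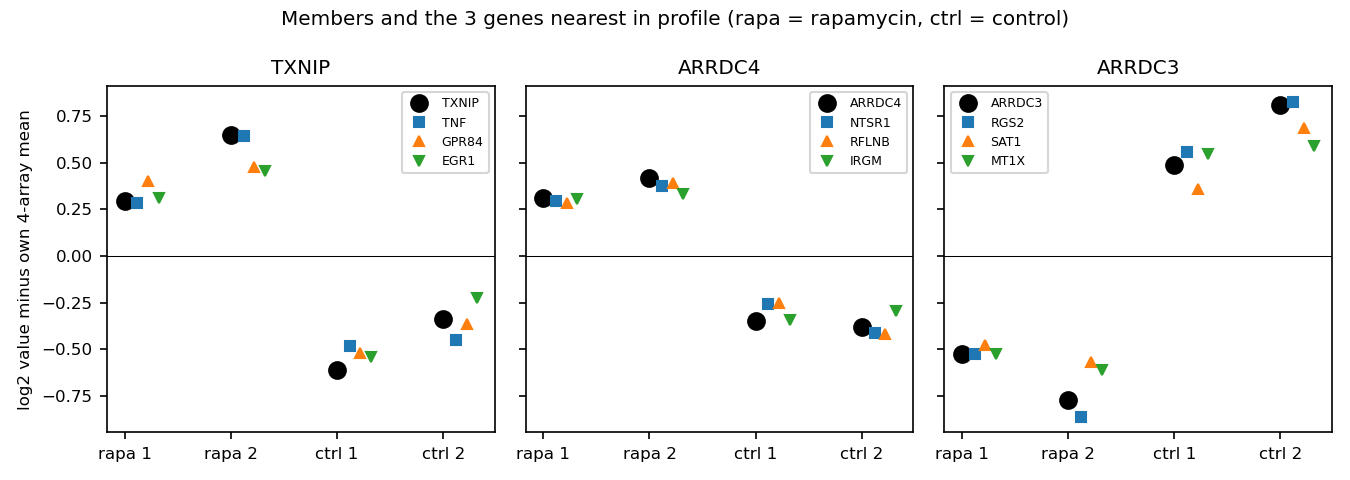
The log2 value minus the mean over the 4 arrays is plotted for each array, rapamycin arrays on the left and control arrays on the right, for TXNIP, ARRDC4 and ARRDC3 (black dots) and the 3 genes nearest to each (coloured symbols, shifted sideways). Each of the nearest genes lies on the same side of 0 as the member on every array, which follows from how they were picked.

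Around these genes, 93 genes in 9 lists were followed in the same fit, of which 71 passed the filter, 17 lay under it and 5 were not analysed here. MLX and its other partners had 1 of 4 tested members called, where 1.28% of all genes were called. MXD1, a repressor that also pairs with MLX, fell, with a log2 difference of -0.63 (SE 0.09, adjusted p = 0.0154). It was not called without control replicate 2 (adjusted p = 0.0967) or without the mean-variance trend (adjusted p = 0.117). MLX itself, the obligate partner of MLXIP and MLXIPL, had a log2 difference of 0.00 (SE 0.09), the repressor MNT had 0.32 (adjusted p = 0.21), and MXD4, a relative of MXD1, had -0.04.

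Genes known to respond to glucose through MondoA or ChREBP in various tissues, other than the members, were called in both directions. Of 13 tested, 4 fell, 1 rose and 8 did not pass, where 0.861% of all genes were called lower and 0.417% higher. This list too was chosen with earlier results known, so nothing is read from these counts. The median log2 difference was -0.05 against 0.01 for all genes tested. BHLHE40, a circadian and stress-responsive repressor, fell, with 9.93 and 9.63 log2 units with rapamycin against 10.39 and 10.63 in controls (log2 difference -0.73, SE 0.11, adjusted p = 0.0202). RGS16, a brake on G protein signalling, was the gene that rose, with 8.17 and 8.35 with rapamycin against 7.66 and 7.73 in controls (log2 difference 0.56, SE 0.10, adjusted p = 0.0337). The groups did not overlap for either gene, nor did they for 46.8% of all genes tested.

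The other 3 that fell were HK2, which makes the glucose 6-phosphate that MLXIP senses (log2 difference -0.69, adjusted p = 0.00703), the lactate dehydrogenase LDHA (-0.51, adjusted p = 0.0378) and the desaturase SCD (-0.50, adjusted p = 0.00827). The metabolic genes ACLY, FASN and ACACA had log2 differences of -0.01, 0.05 and 0.08, and KLF10, an early glucose-responsive factor, had -0.05. Leaving out control replicate 1 took RGS16 to an adjusted p of 0.111 and LDHA to 0.109. Leaving out control replicate 2 took RGS16 to an adjusted p of 0.0912 and LDHA to 0.256. With no filter 2 of these genes were called, HK2 and SCD, and without the mean-variance trend 0.

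The sugar transporters of the SLC2 family, some of which are cargo of TXNIP, had 1 of 9 tested members called (1.28% of all genes). SLC2A1, the widespread glucose transporter whose surface level TXNIP lowers, fell (log2 difference -0.58, SE 0.09, adjusted p = 0.024), but was not called without control replicate 2 (adjusted p = 0.134), without the filter (adjusted p = 0.0687) or without the mean-variance trend (adjusted p = 0.138). SLC2A3, a high-affinity glucose transporter with a near-identical relative in SLC2A14, had 9.75 and 9.55 log2 units with rapamycin against 9.92 and 10.01 in controls. Its adjusted p was 0.128, and 0.0076 without rapamycin replicate 1. SLC2A6 had a log2 difference of 0.25 (adjusted p = 0.401), and the median of the list was -0.06.

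None of the genes in the other 6 lists was called by limma, 0 of 45 tested. Only 1.28% of all genes were called, so nothing is read from this 0. Of the 45, 9 had an unadjusted p under 0.05, while 15.4% of all genes tested had one. Of the E3 ligases that alpha-arrestins recruit and their adaptors, 9 were tested, with a median log2 difference of -0.05. NEDD4 had the largest, at -0.31 (SE 0.10, adjusted p = 0.201), followed by WWP1 at 0.18 and SMURF2 at -0.16, and ITCH, which ubiquitinates TXNIP, had -0.13. The thioredoxin system, 14 genes tested, had a median of -0.02. Thioredoxin itself, TXN, had 11.02 and 11.10 log2 units with rapamycin against 11.09 and 11.30 in controls, and those groups overlapped. SRXN1, which repairs oxidised peroxiredoxins, had a log2 difference of 0.29 (adjusted p = 0.305), and MSRB1 had 0.13.

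Among other proteins with the arrestin fold, 5 were tested. Beta-arrestin 1 (ARRB1) had a log2 difference of 0.32 (adjusted p = 0.152), and the endosomal coat subunits VPS26C and VPS26A had -0.30 and -0.19. Without rapamycin replicate 1, ARRB1 (adjusted p = 0.0079) and VPS26C (adjusted p = 0.00992) were called. ARRDC5, the remaining human alpha-arrestin, lay under the filter, at 3.78 and 3.85 log2 units with rapamycin against 3.78 and 3.71 in controls.

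The kinase AMPK, which marks TXNIP for breakdown, and its activator STK11 had 0 of 7 called, with PRKAB2 at -0.34 (adjusted p = 0.138), PRKAG3 at 0.23 and PRKAG1 at -0.23 on the log2 scale. PRKAB2 was called without rapamycin replicate 1 (adjusted p = 0.0223). The NLRP3 inflammasome, a reported partner of TXNIP, had 0 of 6 called, with NLRP3 at 0.19, NEK7 at -0.18 and PYCARD at 0.12. Without rapamycin replicate 1, NEK7 (adjusted p = 0.0128) and PYCARD (adjusted p = 0.0392) were called. IL1B, the cytokine matured by this complex, lay under the filter and was named after its values were seen. It had 4.91 and 5.05 log2 units with rapamycin against 4.04 and 4.16 in controls. With no filter all 7 genes of the inflammasome list were tested, IL1B included, and 0 were called. Reported cargo and ESCRT partners had 0 of 4 called, with the thrombin receptor F2R at 0.34 (adjusted p = 0.297), VPS4B at -0.12 and VPS4A at 0.03.

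**Figure D5:**
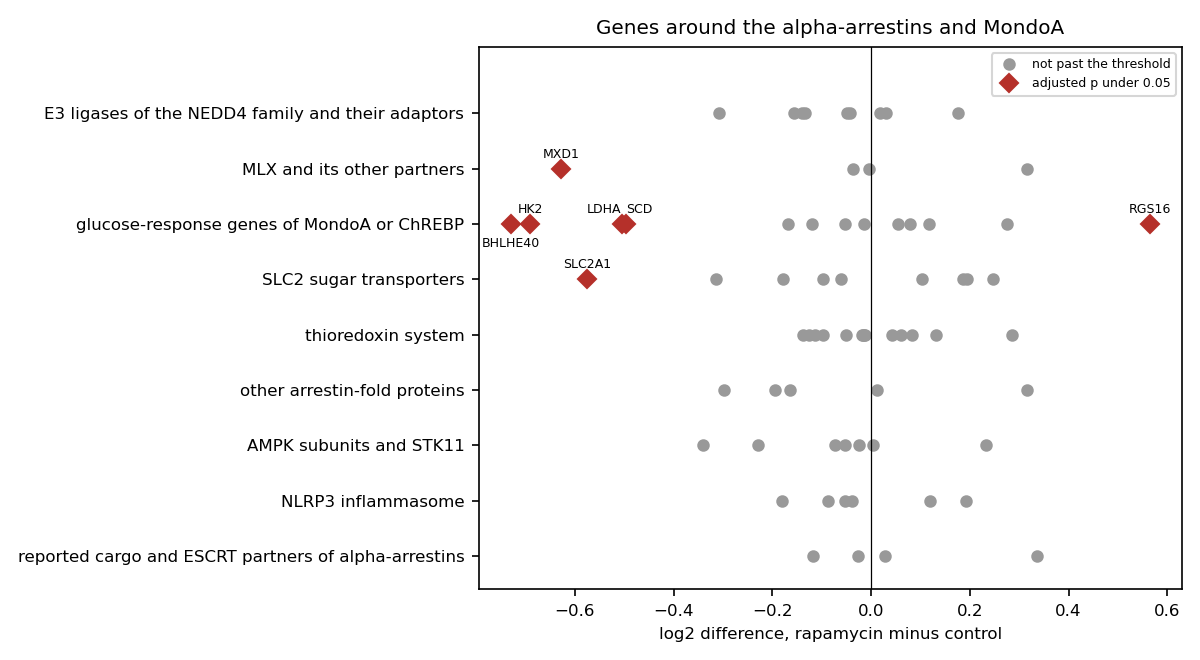
Each symbol is the log2 difference, rapamycin minus control, of a gene past the filter, in the list named on the vertical axis. Red diamonds with names are genes at an adjusted p under 0.05 in the limma fit over all genes and grey dots are the rest: 5 of the 13 glucose-response genes, MXD1 and SLC2A1 are red.

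The paired element printed for TXNIP was present before 16 genes, of which 15 were tested. The other 14 had log2 differences from -0.39 to 0.30 with a median of -0.07. None of those 14 was called by limma, and 3 had an unadjusted p under 0.05, against 1.28% and 15.4% of all genes tested. Of the 1227 tested genes with the single E-box that ARRDC4 carries, 1.14% were called, against 1.28% of all genes tested. They were 5 higher, ARRDC4 among them, and 9 lower, and the median was 0.02 against 0.01 for all genes tested.

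Array medians lay between 5.38 and 5.45 log2 units. Over all probe sets the rapamycin arrays correlated at 0.9940 and the control arrays at 0.9957, and correlations between the groups ran from 0.9924 to 0.9943. The highest correlation between the groups thus exceeded that of the rapamycin pair. Of 12 myeloid and leukemic markers 10 were in the table and 9 of them passed the filter, FLT3, SPI1 and LYZ included, while CD14 did not. Of 10 markers of other cell types 8 were in the table and KRT19 and COL1A1 passed the filter. None of the 11 markers past the filter was called by limma, and 3 had an unadjusted p under 0.05. Of all genes tested 1.28% were called and 15.4% had an unadjusted p under 0.05, so nothing is read from these counts.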

How the data were processed

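RNA of 4 MOLM-14 samples was measured on single-channel arrays, 2 with rapamycin and 2 controls, grouped by the agent label. The deposited table gives each of 25582 probe sets a log2 value on each array. Per the submitters' processing notes, RMA and Partek were used, with no versions or roles, and the genome build is not given in the sources used here. Per the labels' protocols, total RNA was converted to biotin-labelled DNA by a whole-transcript method.

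The platform annotation gave 24244 probe sets 1 gene symbol and 1338 none. Probe sets with a mean under the 40th percentile (4.86) were left out, and the brightest probe set stood for a gene, which left 14635 genes. The comparison used limma 3.58.1 under R 4.3.3 (lmFit, eBayes with a mean-variance trend, two-sided, Benjamini-Hochberg over all genes tested). Every adjusted p comes from this fit or the setting named beside it, and a gene was called under 0.05. The code was tested on simulated data. The median SE of a log2 difference was 0.12 and the number of arrays limits the precision. Biological replicates are named in the design, with nothing on separate cultures, so p-values measure only how far these arrays differ, which may be technical.

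Members, gene lists and tests were chosen with earlier results of these data known. Named are the 7 members, the called genes and the 3 largest differences of each list, the 3 genes nearest in profile to TXNIP, ARRDC3 and ARRDC4, and a few list genes added for their role, after values were seen: MLX, ACLY, FASN, ACACA, KLF10, ITCH, ARRDC5 and IL1B. All 7 members matched the RefSeq promoter table (GRCh38.p14).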

Additional observations from a re-analysis of the deposited data

How the results depend on the processing

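With 2 arrays a group, leaving out an array leaves a lone array that is assumed to vary like the other group. The number of genes called among all tested was 187, against 60 with no filter, 17 without the mean-variance trend, 317 with arrays centred on their medians, 321 with the replicate block and 76 to 1300 with an array left out (76 without control replicate 2 and 1300 without rapamycin replicate 1). Members called were 3, against 2 with no filter and 1 without the trend. The median log2 difference of the members was 0.076, against 0.124 with the filter at the 60th percentile, which left 6 members, 0.045 with arrays centred on their medians, 0.053 with repeated quantile normalization and 0.070 to 0.161 with an array left out. Glucose-response genes called were 5, against 2 with no filter, 0 without the trend and 3 to 5 with an array left out. SLC2 transporters called were 1, against 0 with no filter, 0 without the trend and 0 to 2 with an array left out. MLX and partners had 1 called, against 0 without the trend and 0 to 1 with an array left out. With an array left out, other arrestin-fold proteins had 0 to 2 called, AMPK 0 to 1 and the inflammasome 0 to 2. Over the 7 members and the called or largest-difference genes of the lists, 36 genes in all, 392 values were obtained under 11 alternatives, of which 365 stayed on their side of the threshold, 21 lost and 6 gained a call, and 0 called genes changed sign. The cause of these changes was not tested. Genes not called in the reported fit could not lose a call, so the 365 does not show how stable the calls were. Equal replicate numbers are not stated to mark a shared culture or day. Deviations of equally numbered arrays from their group means correlated at -0.03 over genes. With the replicate block 321 genes were called, against 187 without it. The members called remained 3, but they were chosen on this comparison, so nothing is read from that. No list gene had several probe sets, so testing each probe set on its own gave no further value. The number of arrays limits what can be resolved.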
